A study of Mus musculus with 44 samples.

Results

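Mouse gastric organoid lines that carried an HNF4A lentivirus were compared with gastric organoid lines that carried a GFP lentivirus, gene by gene, by RNA-seq. The comparison took 6 of the 20 RNA-seq libraries of the series, with 3 lines in each group, and all 19733 gene symbols of the count table. After a filter on low counts 12720 symbols were tested. Each group has a line 1, a line 2 and a line 3, so that an HNF4A library has a GFP library of the same line number. GFP, a fluorescent protein, served as the neutral product in the control organoids. Gastric lines that carried a CDX2 lentivirus (3 libraries) and small intestine organoids (2 libraries) were sequenced alongside and are used here as reference levels. All these organoids are of the C57BL/6 strain, and the series design calls the gastric lines isogenic. The sources used here do not give the age of the animals, the promoter of the vectors or the species of the HNF4A coding sequence, nor do they say whether the lines came from separate animals. The p-values therefore measure the spread between these libraries. One label field of the gastric RNA libraries names small intestine organoids, whereas their tissue field and the series design give gastric organoids, and the latter were followed.

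HNF4A is a nuclear receptor that binds DNA as a dimer and activates genes of hepatocytes, intestinal enterocytes, kidney tubules and pancreas. In the intestine it works with its relative HNF4G and with the homeodomain factor CDX2 on genes of the brush border, lipid handling and metabolism, and in the liver it maintains genes for plasma proteins, apolipoproteins, ammonia disposal and drug metabolism. The glandular stomach also transcribes Hnf4a, at a lower level than the intestine, and lacks most of these target genes. HNF4A binds closely spaced direct repeats, and a common form of them is written here as caaagnnca, where n is any base.

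Total counts of the 6 libraries ran from 6926300 to 9497363. Levels are given as CPM, counts divided by the scaled library size, and 3 counts stand for 0.319 to 0.408 CPM in one library. Counting intervals below cover counting error only, since the reads carry no molecular identifiers. For every pair of libraries of one group the chi-square divided by its degrees of freedom was 28.88 or more, so no pair of libraries was a repeat of the other. Epcam, an epithelial adhesion protein, was at 890, 1069 and 849 CPM in GFP lines 1, 2 and 3 and at 1166, 1304 and 1035 CPM in HNF4A lines 1, 2 and 3. Muc6, the mucin of gastric gland cells, was at 2004, 3772 and 6923 CPM in the GFP lines and at 228, 1843 and 4272 CPM in the HNF4A lines, against at most 0.44 CPM in the small intestine organoids. Both gene levels fit the gastric epithelial label. The summed level of 15 fibroblast markers was 303.4 to 1840 CPM in the GFP lines and 524.3 to 1611 CPM in the HNF4A lines, nearly all of it Fn1, and Lum was at 0 in all 6 libraries. Summed immune markers were at 35.04 to 118.4 and 44.5 to 95.7 CPM and summed endothelial markers at 21.81 to 42.42 and 15.24 to 31.14 CPM in the GFP and HNF4A lines. None of the tested members of these 3 lists was called.

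Hnf4a itself (chr2:163506811-163572907, GRCm38.p6) was read at 158, 132 and 95.7 CPM in GFP lines 1, 2 and 3 and at 502, 399 and 289 CPM in HNF4A lines 1, 2 and 3. Every HNF4A library was above every GFP library, and the lines stood in the same order in both groups. The difference was 1.63 ± 0.36 (log2, SE), a 3.08-fold higher mean, with an edgeR adjusted p of 0.166 when lines are not matched and 0.0075 when the line number is a block. The blocked call was lost when line 2 (0.063) or line 3 (0.10) was left out, and kept without line 1 (0.0495). Reads from the transgene and from the gene of the organoid cannot be told apart, because the species of the transgene is not given. The level in the HNF4A lines lay below that of the small intestine organoids, at 717 and 885 CPM, by 1.01 (log2), with an adjusted p of 0.11.

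A difference is named as called here when its edgeR quasi-likelihood p, adjusted by Benjamini-Hochberg over the 12720 genes, is under 0.05. Without matching of lines, 18 genes were called higher in the HNF4A lines, which is 0.142% of the genes tested, and 0 were called lower (0%). At an unadjusted p under 0.05, 546 genes were higher (4.29%) and 187 lower (1.47%), and DESeq2 called 197 higher (1.55%) and 24 lower (0.189%). Same-numbered libraries deviated together from their group means, so the fit with line as a block is given as well. A difference and its SE come from the fit without the block unless named as blocked. With the block 134 genes were called higher (1.05%) and 17 lower (0.134%), and these include all 18. All 134 were higher, and all 17 lower, within each of the 3 lines. The number called rests on few libraries: leaving out GFP line 1 left 4 genes called without the block, HNF4A line 1 left 5, HNF4A line 2 left 5, GFP line 2 left 7, GFP line 3 left 7 and HNF4A line 3 gave 30. With the block, leaving out line 1, line 2 or line 3 as a whole left 21, 17 and 33 genes called in either direction. B4galnt2, Cfb, Gucy2c and Myo7b were called in all 6 fits that left out a single library, and B4galnt2, Clrn3, Hopx, Isx and Myo7b in all 3 that left out a line.

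These letters stood near a start of several of the genes called higher. These sequences are shown because they let the letters be read beside the measured levels. RefSeq windows of GRCm38.p6, from 250 bases before to 50 after each listed start of a gene, matched 105 of the 134 genes, and 31 of them (29.5%) held caaagnnca on either strand. It stood in 622 of the 9767 matched genes among all those tested (6.37%), in 6.36% of all 32851 windows, and in 2 of the 15 matched genes called lower (13.3%). The pattern takes in the variants caaagtcca, caaagttca and caaaggtca, and caaagtcca alone was in 3 of the 105 (2.86%) and in 0.604% of the genes tested. Of the 18 genes called without the block 11 matched and 4 held the letters, namely Clrn3, Cyp2d10, Igsf23 and Pipox. The stretches below, 5′ to 3′ on the strand of the gene, are parts of such windows that lie wholly outside the annotated gene, with the matched letters in capitals. A match on the opposite strand shows as its reverse complement.
Clrn3, chr7:135528657-135528746, minus strand: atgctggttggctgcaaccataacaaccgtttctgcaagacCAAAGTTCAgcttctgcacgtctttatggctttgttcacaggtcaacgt
Pipox, chr11:77894061-77894122, minus strand: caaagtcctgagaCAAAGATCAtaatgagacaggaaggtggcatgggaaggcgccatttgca
Apob, chr12:7977533-7977622, plus strand: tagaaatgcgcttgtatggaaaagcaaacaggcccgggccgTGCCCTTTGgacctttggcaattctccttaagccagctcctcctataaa
Anks4b, chr7:120173758-120173847, plus strand: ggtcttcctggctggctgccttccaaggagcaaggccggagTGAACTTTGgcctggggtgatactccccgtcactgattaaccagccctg
Abcb1a, chr5:8566871-8566960, plus strand: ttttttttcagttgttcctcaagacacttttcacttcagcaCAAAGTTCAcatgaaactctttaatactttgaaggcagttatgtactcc
The first matched base lay 51 bases before the start of the window's transcript in Clrn3, 59 in Anks4b, 103 in Apob, 179 in Abcb1a and 237 in Pipox. In Apob that start lies 48 bases inside the outer start of the annotated gene, and in the other 4 it is the outer start. The matches of Cyp2d10, Igsf23 and Muc13 belong to starts 59, 2911 and 452 bases inside the gene, so their stretches, which reach into the annotated gene, are not shown. Those of Cyp2d26 and Slc7a9 reach into the gene as well. Stretches of Abcg5, Ahcy, Ces2e, Elovl6 and Gabrp also lie outside the gene and were left out. Gabrp is among the genes called lower with the block. A match is a run of letters and no measurement of binding, and occupancy by HNF4A was not analysed here.

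Of the intestinal transcription factor genes 3 were called higher with the block, and no gastric one was called in either direction. Cdx2, the homeodomain factor of the intestinal epithelium (chr5:147300900-147307249), was at 3.95, 7.44 and 3.19 CPM in the GFP lines and at 50.7, 29.1 and 22.6 CPM in the HNF4A lines. The groups did not overlap, and the HNF4A mean was 6.98-fold higher, with 2.80 ± 0.56 (log2, SE) at an adjusted p of 0.11 and of 0.019 with the block. These Cdx2 levels were still below the 200, 288 and 62 CPM of the CDX2 lines and the 282 and 272 CPM of the small intestine organoids. In the direct comparison of the HNF4A lines with the CDX2 lines the blocked difference was -2.24 (log2, adjusted p = 0.044). How many of the Cdx2 reads in the CDX2 lines come from the vector was not tested.
Isx, an intestinal homeodomain factor that controls vitamin A uptake, had 0 reads in the GFP lines and was at 4.42, 4.64 and 1.36 CPM in the HNF4A lines, at least 32.2-fold higher (adjusted p = 0.082, blocked 0.0027). It was far below the CDX2 lines, which read 104, 71.6 and 30.3 CPM (blocked difference -4.29, adjusted p = 0.0017). Nr1i2, the xenobiotic-sensing receptor PXR, went from 6.30, 12.3 and 7.6 CPM to 38.2, 43.0 and 30.4 CPM, by 2.09 ± 0.36 (log2, SE, adjusted p = 0.066, blocked 0.041). Cdx2, Isx and Nr1i2 were the called ones of 24 tested intestinal factors, against 1.05% of all genes. Without the block 0 were called, against 0.142% of all genes.

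Hnf4g, Cdx1 and Sox2 were not called. Hnf4g, the closest relative of HNF4A, was at 8.75, 10.2 and 11.9 CPM in the GFP lines and at 16.3, 12.7 and 20.3 CPM in the HNF4A lines (0.67 ± 0.34, adjusted p = 0.94, blocked 0.49). Its groups did not overlap, without passing the test. Cdx1, the second intestinal CDX factor, had 0 reads in all GFP lines and was at 2.32, 6.23 and 0.27 CPM in the HNF4A lines, at least 27.9-fold higher as a group, with an adjusted p of 0.45 (blocked 0.17). Line 3 held almost none of it. Sox2, a factor of foregut and stomach, was at 116, 89.9 and 43.0 CPM in the GFP lines and at 49.4, 57.1 and 29.0 CPM in the HNF4A lines, and the groups overlapped (-0.88 ± 0.52, adjusted p = 1, blocked 0.18). None of the 15 tested gastric factors was called, and their median difference was -0.21 (log2) against 2.71e-05 over all genes tested.

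**Figure D1:**
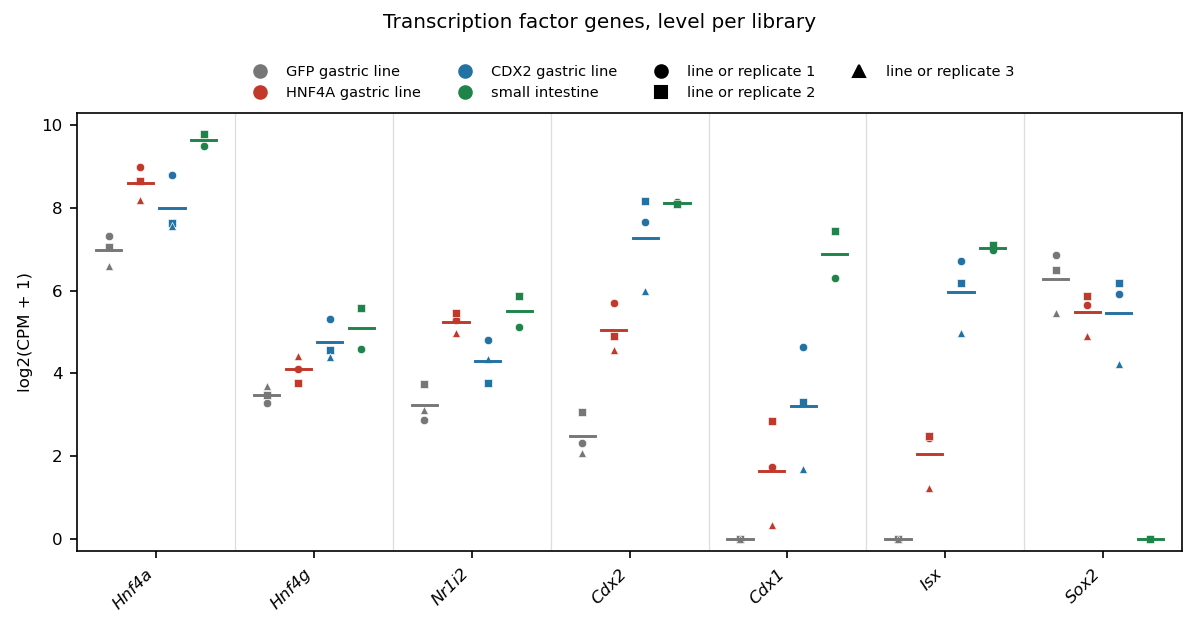
Level of 7 transcription factor genes in each library as log2(CPM + 1), with GFP, HNF4A and CDX2 gastric lines and small intestine organoids in colour, the line number as the symbol, and a bar at the mean of each group's log2 values. Hnf4a, Nr1i2, Cdx2 and Isx of the HNF4A lines sit above all GFP lines, and Cdx2 and Isx remain below the CDX2 lines and the small intestine.

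The smallest p-values belonged to intestinal surface and signalling genes and to Cfb, which is described with the plasma proteins. B4galnt2, the glycosyltransferase that makes the Sda blood group sugar of intestinal mucins (chr11:95863559-95914960), was at 1.39, 2.34 and 2.94 CPM in the GFP lines and at 49.0, 42.4 and 63.8 CPM in the HNF4A lines. This 23.3-fold difference (4.54 ± 0.28, log2, SE) had the smallest adjusted p of all genes, 0.000215. Its level was lower than in the CDX2 lines, which read 315, 254 and 269 CPM (adjusted p = 0.019 without the block).
Myo7b, the motor protein that ties the tips of microvilli together (chr18:31959234-32036931), went from 0.32, 0.32 and 0.37 CPM to 211, 104 and 118 CPM. The GFP lines held 9 reads of it in all and the HNF4A lines 3604, a difference of 8.69 ± 0.58 (log2, SE, adjusted p = 0.00022). Gucy2c, the receptor for the gut peptides guanylin and uroguanylin, had 2 reads in the GFP lines and was at 37.6, 25.6 and 44.8 CPM in the HNF4A lines, a ratio of 478 (95% counting interval 132 to 3951, adjusted p = 0.0023). Prkg2, the cGMP-dependent kinase that acts downstream of Gucy2c in fluid secretion, also had 2 reads in the GFP lines and reached 12.7, 8.95 and 8.57 CPM, a ratio of 136 (37.4 to 1133, adjusted p = 0.028). Gucy2c and Prkg2 were thus both called, and both passed the low-count filter through other groups than the GFP lines. Other genes of this cGMP route are not reported here.

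Further genes were called, among which Mgam, Hopx and Ckb had smaller p-values than Prkg2. Mgam, the brush border maltase-glucoamylase, was at 12.1, 19.4 and 9.56 CPM in the GFP lines and at 195, 135 and 133 CPM in the HNF4A lines (11.3-fold, 3.49 ± 0.37, adjusted p = 0.0061); the call was lost without GFP line 1. Cdh17, the liver-intestine cadherin, went from 1.71, 3.61 and 4.41 to 182, 86.4 and 41.6 CPM (5.00 ± 0.73, adjusted p = 0.037). Clrn3, a clarin family membrane protein, had 2 reads in the GFP lines and was at 24.1, 12.3 and 9.25 CPM in the HNF4A lines, a ratio of 209 (57.4 to 1729, adjusted p = 0.028). In each of these genes line 1 of the HNF4A organoids was the highest.
Hopx, a homeodomain-only protein found in slow-cycling intestinal cells and in mature epithelium, rose from 14.4, 21.4 and 13.2 CPM to 82.7, 76.7 and 55.1 CPM (2.13 ± 0.25, adjusted p = 0.012). Myb, a transcription factor of intestinal crypt cells, rose from 1.07, 1.81 and 1.72 CPM to 14.2, 15.1 and 13.6 CPM (3.21 ± 0.45, adjusted p = 0.032). Igsf23, an immunoglobulin family protein, was at 16.3, 37.0 and 25.4 CPM and then 119, 120 and 105 CPM (2.13 ± 0.30, adjusted p = 0.032). The HNF4A lines lay close together for Myb and Igsf23. Ckb, the brain-type creatine kinase, was at 2.03, 9.89 and 7.96 CPM in the GFP lines and at 117, 264 and 86.6 CPM in the HNF4A lines (4.56 ± 0.60, adjusted p = 0.028).
The last of the 18 genes belong to metabolism and plasma proteins, except Tm4sf20, a tetraspanin-like membrane protein (6.84 ± 1.00, adjusted p = 0.037), and all of them kept the groups apart. Tm4sf20 and Pklr, the pyruvate kinase of liver and red cells (1.73 ± 0.27, adjusted p = 0.047), are named although they follow the 15 smallest p-values. Of the 18, 9 were below the filter level of 1.12 CPM in most GFP lines, so they entered the test through the other groups. The same held for 55 of the 134 genes called higher with the block and for 923 of all 12720 genes tested. Shares called in lists with many such genes are therefore not like for like with the share of all genes. Of the 14 genes other than the 4 that were called in every single-library omission, Serpinf2 and Pklr were lost in all 6 omissions, Mgam in 1, and the rest in 4 or 5.

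**Figure D2:**
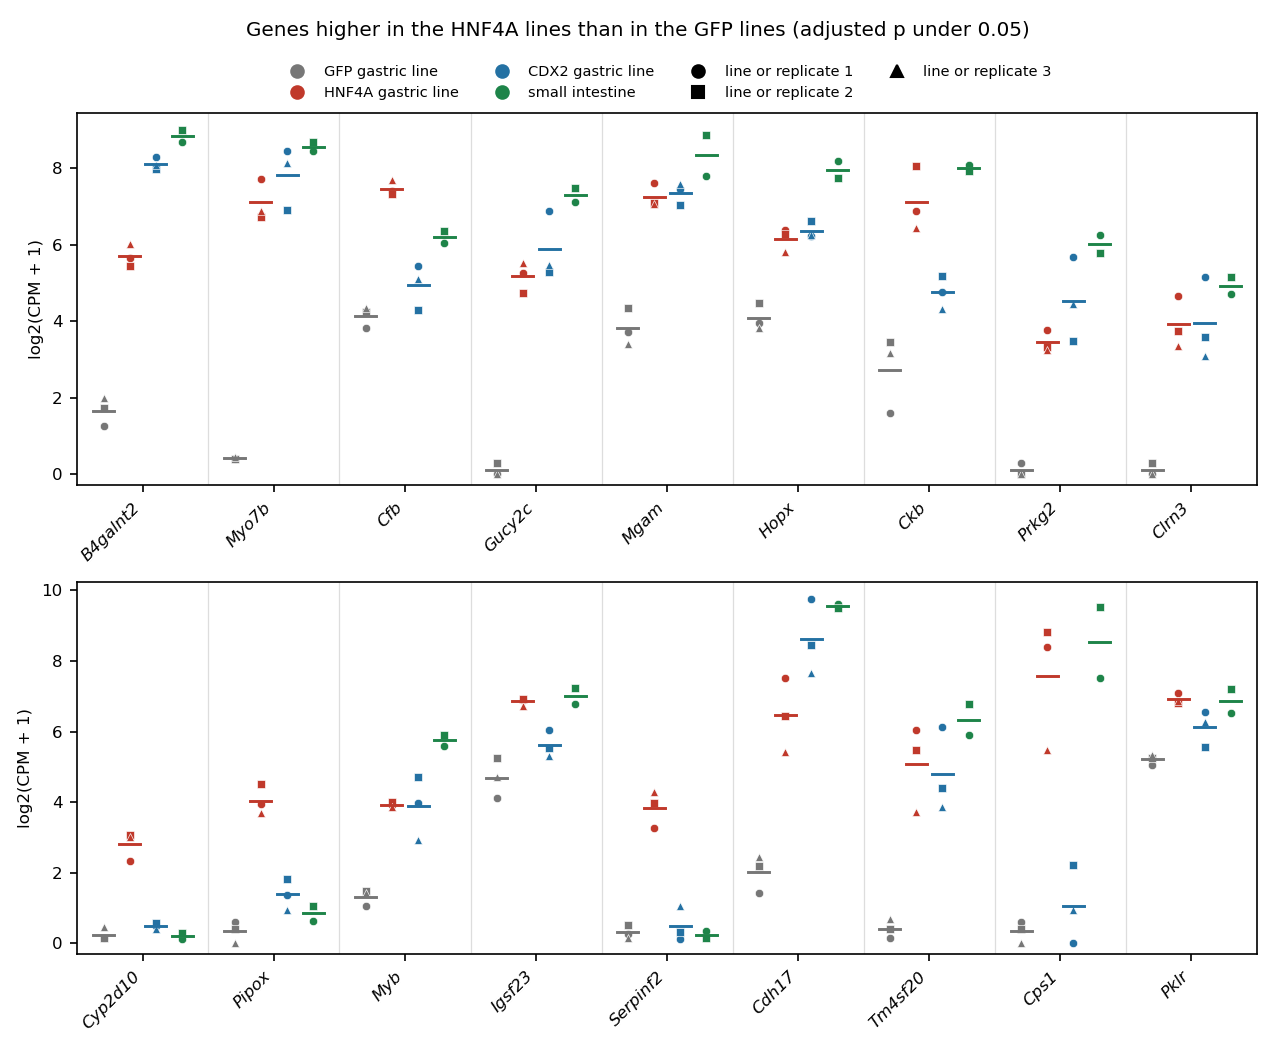
The 18 genes called higher in the HNF4A lines without the line block, in order of p, as log2(CPM + 1) per library, with a bar at the mean of each group's log2 values. In every gene the 3 HNF4A libraries lie above the 3 GFP libraries, and in Cfb, Cyp2d10, Pipox and Serpinf2 they also lie above all CDX2 and small intestine libraries.

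Genes that build the brush border, the carpet of microvilli on absorptive cells, had the largest share of called members of any list with the block. Of 27 tested members 2 were called without the block, Myo7b and Cdh17, and 10 with it, all higher, against 0.142% and 1.05% of all genes. Their median difference was 0.70 (log2), and 6 were below the filter level in most GFP lines. In 13 the groups did not overlap with HNF4A higher, against 6.69% of all genes tested. The intermicrovillar adhesion complex joins neighbouring microvilli at their tips through the cadherins CDHR2 and CDHR5, with MYO7B, ANKS4B, USH1C and CALML4 at its base. Cdhr5 had 6 reads in the GFP lines and was at 89.2, 40.4 and 29.8 CPM in the HNF4A lines (adjusted p = 0.053, blocked 0.0075). Cdhr2 was at 15.8, 19.9 and 4.29 CPM and then 364, 229 and 70.6 CPM, 16.5-fold higher (adjusted p = 0.21, blocked 0.016).
Anks4b, the scaffold of the complex, went from 1.07, 2.98 and 0.86 to 27.0, 25.1 and 16.1 CPM (adjusted p = 0.069, blocked 0.011). Calml4, its calmodulin-like light chain, went from 29.5, 28.5 and 13.5 to 140, 104 and 90.8 CPM (adjusted p = 0.066, blocked 0.0087). Both cadherins, the motor, its light chain and Anks4b were therefore called with the block, and for each the groups did not overlap. Ush1c, the harmonin scaffold and remaining member, was not called: it was at 0.11, 0.43 and 0 CPM in the GFP lines and at 2.44, 1.70 and 1.23 CPM in the HNF4A lines (adjusted p = 0.81, blocked 0.26). In the small intestine organoids Ush1c was at 94.5 and 148 CPM, and HNF4A minus small intestine was -6.06 (log2, adjusted p = 0.0092). No difference from the small intestine organoids was called for Cdhr2 (-0.42, log2, adjusted p = 0.79), Cdhr5 (-1.01, adjusted p = 0.44), Anks4b (-0.51, adjusted p = 0.60) and Calml4 (-0.07, adjusted p = 0.92), which does not show equal levels. Myo7b lay at the margin of that comparison (-1.40, adjusted p = 0.050).
Other called members were the membrane motor Myo1a (blocked 3.31 ± 0.59, adjusted p = 0.049) and the metalloprotease Mep1b (blocked adjusted p = 0.019). The actin regulator Eps8l3 (blocked 1.08 ± 0.19, adjusted p = 0.039) and the bundling protein Pls1 (blocked 0.71 ± 0.12, adjusted p = 0.036) were called as well. Eps8l3 and Pls1 were already above 80 CPM in every GFP line. Vil1, the villin of microvillus cores, was at 311, 387 and 366 CPM in the GFP lines and at 568, 611 and 579 CPM in the HNF4A lines, without passing the test (0.72 ± 0.17, adjusted p = 0.21, blocked 0.054). The structural core was thus read in all lines, while the tip adhesion genes were near the floor, except Cdhr2 and Calml4, in the GFP lines.

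Of 16 digestive enzymes and peptidases tested Mgam was called, with and without the block, against 0.142% and 1.05% of all genes. The list median was 2.00 (log2), and 8 members were below the filter level in most GFP lines. In 6 the groups did not overlap with HNF4A higher, against 6.69% of all genes tested. The difference between this list and the brush border list was not tested. Sis, sucrase-isomaltase, had 0 reads in the GFP lines and was at 0.23, 0.68 and 0.54 CPM in the HNF4A lines against 30.4 and 51.1 CPM in the small intestine organoids (adjusted p = 0.86, blocked 0.42). Alpi, intestinal alkaline phosphatase, had 1 read in the GFP lines and was at 140, 9.17 and 0 CPM in HNF4A lines 1, 2 and 3 (adjusted p = 0.59, blocked 0.080). Line 1 carried nearly all of the Alpi reads. Sis and Alpi were chosen after their values were seen. Of 24 tested sugar, amino acid and ion transporters 1 was called with the block, Slc7a9, the light chain of the cystine transporter. It had 2 reads in the GFP lines and was at 6.27, 5.21 and 1.36 CPM in the HNF4A lines (blocked 0.047). A single call, against 1.05% of all genes, is no result about the transporter list.

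Among the lipid genes the carrier protein Apob reached the highest level in the HNF4A lines. Apob, the structural protein of chylomicrons and very low density lipoprotein (chr12:7977629-8016839), was at 25.3, 65.7 and 97.3 CPM in the GFP lines and at 827, 636 and 986 CPM in the HNF4A lines. The HNF4A mean was 13-fold higher, 3.70 ± 0.65 (log2, SE), with an adjusted p of 0.071 and of 0.038 with the block. The CDX2 lines stayed at 60.7, 28.6 and 87.9 CPM, and the blocked difference of HNF4A from CDX2 lines was 3.86 (log2, adjusted p = 0.045). In the small intestine organoids Apob was at 82.6 and 315 CPM.
Apoc2, the activator of lipoprotein lipase, had 1 read in the GFP lines and was at 118, 54.1 and 5.04 CPM in the HNF4A lines (blocked adjusted p = 0.014, 0.12 without the block). Abcg5 and Abcg8, the paired half-transporters that return plant sterols to the gut lumen, had 5 and 2 reads in the GFP lines. Abcg5 was at 5.23, 2.94 and 2.04 CPM and Abcg8 at 5.11, 3.06 and 3.40 CPM in the HNF4A lines, with blocked adjusted p-values of 0.030 and 0.0087. Both partners were thus called together, at a small fraction of their level in the small intestine organoids, where Abcg5 read 35.7 and 19.97 CPM. The annotated genes Abcg5 and Abcg8 overlap, and the counting may have shared reads between them. In all, 4 of 32 tested lipid genes were called with the block and 0 without it, against 1.05% and 0.142% of all genes. The list median was 1.01 (log2), and 11 members were below the filter level in most GFP lines. Apoa1 (0.96, 0.43 and 0 CPM against 14.6, 14.8 and 3.27 CPM, blocked 0.075) and Apoa4 (0 reads against 1.74, 5.55 and 0 CPM, blocked 0.077) were not called and are named after their values were seen. Acsl5, an acyl-CoA synthetase and among the most abundant list members, was at 227, 169 and 162 CPM against 313, 248 and 191 CPM (blocked 0.25).

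Among the urea cycle and amino acid genes Cps1 was called in both fits. Cps1, the mitochondrial carbamoyl phosphate synthetase that opens the urea cycle and also serves intestinal arginine supply (chr1:67122426-67231267), had 8 reads in the GFP lines and 7152 in the HNF4A lines. Its level was 0.53, 0.32 and 0 CPM in GFP lines 1, 2 and 3 and 332, 450 and 43.6 CPM in HNF4A lines 1, 2 and 3. Line 3 was lower than lines 1 and 2 by a wide margin, yet far above every GFP line. The difference was 9.80 ± 1.47 (log2, SE, adjusted p = 0.042). Cps1 in the CDX2 lines was at 0, 3.62 and 0.95 CPM, and the blocked difference between HNF4A and CDX2 lines was 7.61 (log2, adjusted p = 0.036). The small intestine organoids read 183 and 738 CPM.
The other members of the list of urea cycle and amino acid genes called with the block were Cth, the cystathionine lyase of cysteine synthesis (blocked 2.26 ± 0.20, adjusted p = 0.0027), and Ahcy, which breaks down S-adenosylhomocysteine (blocked 1.01 ± 0.17, adjusted p = 0.033). That makes 3 of 33 with the block and 1 without it, against 1.05% and 0.142% of all genes, at a median of 0.43 (log2). Ass1, a later enzyme of the urea cycle, is listed at 0 in all 6 libraries.

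Plasma protein genes were called for some members only. Serpinf2, the plasmin inhibitor alpha-2-antiplasmin (chr11:75431736-75439501), was at 0.21, 0.43 and 0.12 CPM in the GFP lines and at 8.60, 14.6 and 18.4 CPM in the HNF4A lines (5.67 ± 0.83, adjusted p = 0.037). Neither the CDX2 lines, at 0.10, 0.24 and 1.10 CPM, nor the small intestine organoids, at 0.28 and 0.11 CPM, reached that level. The differences were 5.02 from the CDX2 lines with the block (adjusted p = 0.022) and 6.02 from the small intestine (adjusted p = 0.0091).
Cfb, complement factor B (chr17:34856374-34862514), was at 13, 18 and 19.5 CPM in the GFP lines and at 168, 159 and 206 CPM in the HNF4A lines, 10.6-fold higher (3.40 ± 0.31, adjusted p = 0.0023). It was also higher than in the CDX2 lines (2.49, adjusted p = 0.041 without the block) and than in the small intestine (1.29, adjusted p = 0.034). Ttr, the thyroxine and retinol carrier transthyretin, went from 1.60, 3.51 and 0.74 to 25.8, 20.4 and 22.5 CPM (3.53 ± 0.61, adjusted p = 0.069, blocked 0.020). Of 34 tested plasma protein genes 2 were called without and 3 with the block, against 0.142% and 1.05% of all genes. On this list 18 members were below the filter level in most GFP lines. The summed level of the list was nevertheless lower in value in the HNF4A lines, 2697 to 3161 CPM against 3278 to 7503 CPM. Trf, transferrin, made up much of this sum, though not all of the difference. Trf was at 5929, 3098 and 1838 CPM in the GFP lines and at 1682, 1957 and 1686 CPM in the HNF4A lines (-1.03 ± 0.63, adjusted p = 1, blocked 0.60).

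Drug-metabolising enzymes gave the largest number of called genes of any list with the block, 11 of 53 phase I enzymes against 1.05% of all genes, while 1 was called without it, Cyp2d10. The list median was 1.48 (log2), and 22 of the 53 were below the filter level in most GFP lines, against 923 of all 12720 genes tested. All called members but Cyp2c55 and Ces2e were among the 22. The shares called and not overlapping are therefore not like for like with those of all genes. In 22 the groups did not overlap with HNF4A higher, against 6.69% of all genes. Cyp2d10, a P450 of mouse liver, was at 0.11, 0.11 and 0.37 CPM in the GFP lines and at 4.07, 7.47 and 7.08 CPM in the HNF4A lines (4.93 ± 0.67, adjusted p = 0.028). Its level in the small intestine organoids was 0.09 and 0.22 CPM, and the HNF4A lines exceeded it by 5.21 (log2, adjusted p = 0.0068). Cyp2d9 and Cyp2d26, its relatives, were called with the block (0.042 and 0.020), and Cyp2d26 reached 83.3, 59.1 and 19.2 CPM from 12 reads in all the GFP lines.
Cyp2c55, a P450 of the large intestine that metabolises fatty acids, went from 1.71, 3.08 and 0.12 to 188, 71.3 and 57.4 CPM (5.97 ± 1.17, adjusted p = 0.10, blocked 0.023). Cyp2c29 and Cyp2c66 had 1 read each in the GFP lines and reached 9.99, 6.00 and 1.5 CPM and 58.0, 15.3 and 2.45 CPM (blocked 0.0087 and 0.045). Cyp3a25 had 1 read and reached 13, 9.85 and 9.25 CPM (blocked 0.044), and Cyp4f14 had 0 reads and reached 5.93, 3.74 and 1.09 CPM, at least 33.3-fold higher (blocked 0.039). These P450 genes have close paralogs, between which the counting may have split or shared reads.
The other called phase I genes were esterases. Aadac, arylacetamide deacetylase, went from 0.96, 0.53 and 0.12 to 14.8, 10.4 and 4.90 CPM (blocked 4.21 ± 0.62, adjusted p = 0.019). Ces2e, a carboxylesterase, went from 3.95, 1.38 and 0.25 to 42.4, 20.8 and 3.67 CPM (blocked 3.70 ± 0.33, adjusted p = 0.0027). Ces1g went from 0.64, 0.32 and 0 to 17.0, 2.15 and 1.09 CPM (blocked 0.032). The Ces2e groups overlapped across lines, and without the block its adjusted p was 0.50 with edgeR and 0.035 with DESeq2. Cyp2c66, Cyp2d9, Cyp3a25, Cyp4f14 and Ces1g fall outside the 6 smallest p-values of the list and were added after their values were seen.
Of 48 conjugating enzymes and drug transporters 4 were called with the block and 0 without it, against 1.05% and 0.142% of all genes. Their median was 0.52 (log2). Ugt1a7c, a glucuronosyltransferase whose gene shares exons with other Ugt1a forms, went from 0.75, 0.43 and 0.49 to 19.6, 5.10 and 6.53 CPM (blocked 0.0061). Abcb1a, the P-glycoprotein efflux pump, went from 3.84, 2.13 and 1.10 to 54.1, 17.9 and 7.21 CPM (blocked 0.010). Gsta1, a glutathione transferase (blocked 0.030), and Tpmt, the thiopurine methyltransferase (blocked 1.41 ± 0.16, adjusted p = 0.0075), were the other called members.
Peroxisomal enzymes were called as well. Pipox, the sarcosine and pipecolic acid oxidase, was at 0.53, 0.32 and 0 CPM in the GFP lines and at 14.4, 21.7 and 11.8 CPM in the HNF4A lines (5.71 ± 0.78, adjusted p = 0.028). The small intestine organoids held 0.56 and 1.10 CPM of it, 4.26 (log2) below the HNF4A lines (adjusted p = 0.017). Ehhadh, the bifunctional enzyme of peroxisomal fat oxidation, was called with the block (blocked 1.34 ± 0.20, adjusted p = 0.019), as the single one of 40 tested genes of fatty acid oxidation. One of 34 genes of cholesterol and fatty acid synthesis was called with the block, the fatty acid elongase Elovl6 (blocked 0.79 ± 0.13, adjusted p = 0.025). Single calls of 40 and of 34 genes lie near the 1.05% called over all genes and are no result about these lists.

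**Figure D3:**
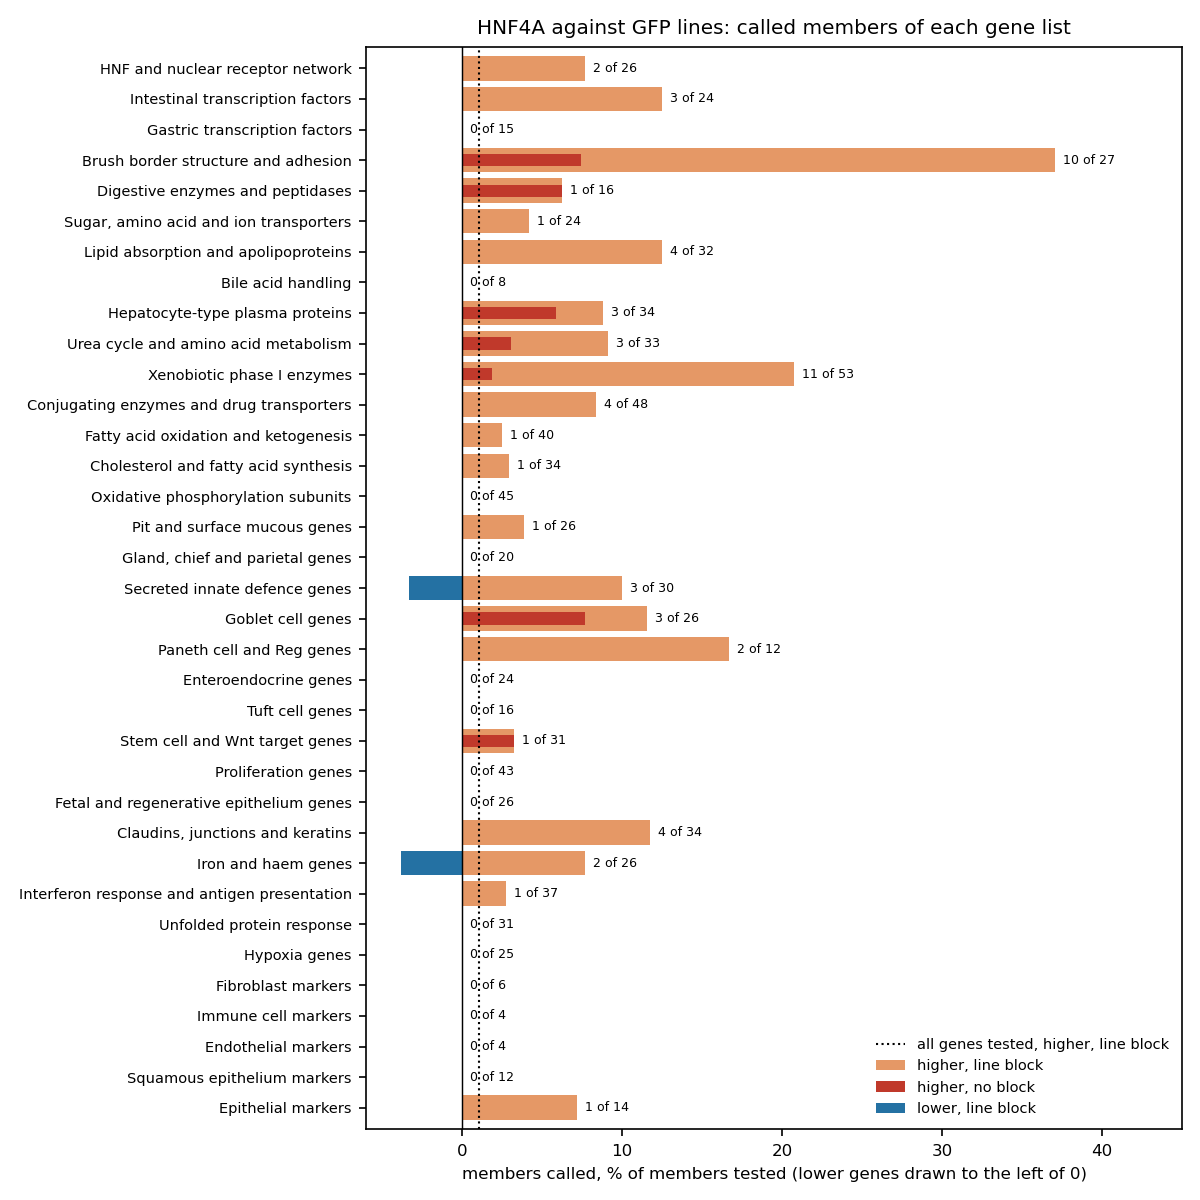
Share of the tested members of each gene list called higher with the line block (orange), called higher without it (red) and called lower with the block (blue, drawn to the left), in percent, with the counts beside the bars and a dotted line at 1.05%, the share of all genes tested. Brush border genes reach 10 of 27 and phase I enzymes 11 of 53, while gastric factors, gland genes, proliferation genes and oxidative phosphorylation subunits have none called.

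With the block 3 of 30 secreted defence genes were called higher and 1 lower, 4 of 34 junction and keratin genes higher, and 2 of 26 iron and haem genes higher and 1 lower, against 1.05% and 0.134% of all genes. Prap1, a small secreted protein of the intestinal lining, had 9 reads in the GFP lines and was at 1209, 445 and 48.5 CPM in HNF4A lines 1, 2 and 3 (blocked adjusted p = 0.021, 0.21 without the block). The HNF4A lines differed widely for this gene, with line 1 far above line 3. Lyz1, the lysozyme of Paneth cells, a close paralog of Lyz2 with which it may share reads, went from 0, 1.70 and 0.12 to 44.1, 132 and 26.9 CPM (blocked 0.0093). Reg3b, an antibacterial lectin, went from 0.96, 10.1 and 13.7 to 59.6, 49.6 and 129 CPM (blocked 0.044). Its relative Reg3g went from 132, 243 and 111 to 606, 500 and 415 CPM without being called (adjusted p = 0.21, blocked 0.15). Of 12 tested Paneth cell and Reg genes 2 were called with the block, Lyz1 and Reg3b, and 0 without it, against 1.05% and 0.142% of all genes. The list median was 2.46 (log2), and 5 members were below the filter level in most GFP lines.
Of the goblet cell list 2 of 26 were called without the block, B4galnt2 and Gucy2c, and 3 with it, against 0.142% and 1.05% of all genes. The block added Muc13, a membrane mucin of the intestine at 33.7, 18.3 and 4.63 CPM from 7 reads in all the GFP lines (blocked 0.039). The secreted goblet cell peptide Tff3 was at 0.11, 0.74 and 0 CPM and then 22.9, 3.17 and 8.85 CPM, not called (adjusted p = 0.16, blocked 0.093). The genes called without the block are not secretory mucins or their peptides: one is a glycosyltransferase and the other a receptor that enterocytes also carry.
Claudins, which seal or open the space between cells, were called with the block for Cldn15, a pore-forming claudin of the small intestine (0.32, 0.43 and 0.25 CPM against 30.9, 22.0 and 8.17 CPM, 0.0075), and Cldn7 (blocked 0.91 ± 0.11, 0.0087). Plakophilin Pkp2 (blocked 0.87 ± 0.12, 0.016) and keratin Krt20 of mature surface cells (0.64, 0.21 and 0 CPM against 27.1, 9.29 and 0.95 CPM, 0.0043) were the other called members of 34 junction and keratin genes. Krt20 is also the single called gene of 26 pit and surface mucous genes, against 1.05% of all genes, which is no result about that list. Heph, the ferroxidase that passes iron out of enterocytes, went from 0, 2.13 and 0 to 109, 56.7 and 32.9 CPM (blocked 6.37 ± 0.86, adjusted p = 0.019), and Tfr2, the iron sensor of hepatocytes, from 0.53, 0.43 and 0 to 10.9, 10.5 and 5.72 CPM (blocked 0.032). Oasl1 was the single called member of 37 interferon genes (blocked 0.030), against 1.05% of all genes, which is no result about the interferon list.

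Genes of the stomach and of general cell state were largely not called. None of 20 tested gland, chief and parietal genes was called, with a median of -0.36 (log2), and their sum was 4985 to 12790 CPM in the HNF4A lines and 7532 to 18070 CPM in the GFP lines. Muc6 was lower in each line by value, by -3.13, -1.03 and -0.70 on the log2(CPM + 1) scale in lines 1, 2 and 3, but the line-to-line spread was larger (adjusted p = 1, blocked 0.38). None of 24 enteroendocrine, 16 tuft, 43 proliferation, 45 oxidative phosphorylation, 31 unfolded protein response, 25 hypoxia or 26 fetal epithelium genes was called in either fit. Hopx was the single called one of 31 stem cell and Wnt target genes, against 1.05% of all genes with the block, which is no result about that list. For enteroendocrine genes 20 of the 24 were below the filter level in most GFP lines. Their median was 1.70 (log2), and 23 were higher in value, against 6361 of all 12720 genes tested. In 7 the groups did not overlap with HNF4A higher, against 6.69% of all genes. Since most members entered the test through other groups, these values are no result about the enteroendocrine list. The summed level was 85.63 to 206.6 CPM in the HNF4A lines against 40.76 to 83.06 CPM in the GFP lines. Fewer cells of a type and less RNA per cell cannot be told apart in these bulk libraries.

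The 17 genes lower with the block had blocked differences from -2.51 to -0.61 (log2) with a median of -1.06, and none of them was called without it. The median of the 134 higher genes was 3.32. Of these 134 genes 55 were below the filter level in most GFP lines, against 0 of the 17. The sizes in the 2 directions are therefore not like for like. Bpifb1, a secreted lipid-binding defence protein of airway and stomach (chr2:154190818-154220343), was at 84.6, 179 and 86.9 CPM in the GFP lines and at 13.4, 53.7 and 9.12 CPM in the HNF4A lines (blocked -2.51 ± 0.28, adjusted p = 0.0099, 0.44 without the block). Each HNF4A line was below its GFP partner and the groups did not overlap. The CDX2 lines were lower still, at 1.61, 3.14 and 0.95 CPM, and the blocked difference from them was called (adjusted p = 0.019). Slc1a2, a glutamate transporter, went from 9.50, 42.8 and 33.6 to 1.05, 9.51 and 9.12 CPM (blocked 0.011), and Myh10, the heavy chain of non-muscle myosin IIB, from 49.5, 30.5 and 93.2 to 13.5, 14.4 and 39.5 CPM (blocked 0.024). In Slc1a2 and Myh10, as in Timp2, Gabrp and Atp8b2, the groups overlapped across lines, and the difference showed within lines. Groups did not overlap in 12 of the 17.
Among transcription regulators, Rarg, the retinoic acid receptor gamma, fell from 71.5, 86.3 and 83.9 to 42.2, 58.4 and 59.3 CPM (blocked 0.038), and Zfp750, a factor of epidermal differentiation, from 31.7, 28.9 and 25.0 to 10.9, 12.6 and 7.49 CPM (blocked 0.033). The haem transporter Slc48a1 (-0.92 ± 0.15, 0.032), the adhesion protein Cadm4 (-0.77 ± 0.14, 0.041), the metalloproteinase inhibitor Timp2 (-1.06 ± 0.19, 0.042) and the raft protein Flot2 (-0.62 ± 0.11, 0.041) were also lower, each given with its blocked log2 difference, SE and adjusted p. Mr1, which presents vitamin metabolites to T cells, went from 24.9, 26.7 and 36.6 to 8.13, 9.51 and 20.4 CPM (blocked 0.039). Gabrp, a GABA receptor subunit, was lower in the HNF4A lines than in the GFP lines (blocked 0.042) but at 195, 118 and 28.1 CPM in the CDX2 lines. Ttc12, Tmem123, Cstf2t, Atp8b2, H2-DMb1 and Lrpap1 complete the 17. The last 2 stand outside the 15 smallest p-values and are named for completeness. Ltf, the iron-binding lactotransferrin, was at 1034, 400 and 335 CPM against 64.5, 105 and 110 CPM without overlap and was not called (-2.66 ± 0.45, adjusted p = 0.066, blocked 0.063).

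The size of the difference varied with the line. Over the 134 genes the median difference on the log2(CPM + 1) scale was 2.81 in line 1, 2.20 in line 2 and 1.76 in line 3. HNF4A line 1 was the highest of the HNF4A lines for 99 of the 134 genes and line 3 for 11. The order line 1 over line 2 over line 3 held for 84 of the 134 genes in the HNF4A lines (62.7%) and for 39 in the GFP lines (29.1%), against 26% and 21.2% of all genes tested. These libraries also chose the genes, so the counts describe them and support nothing further. Hnf4a followed the same order in both groups, with differences of 1.66, 1.59 and 1.59 in lines 1, 2 and 3. Whether the Hnf4a level has a part in the order of the other genes was not tested.

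**Figure D4:**
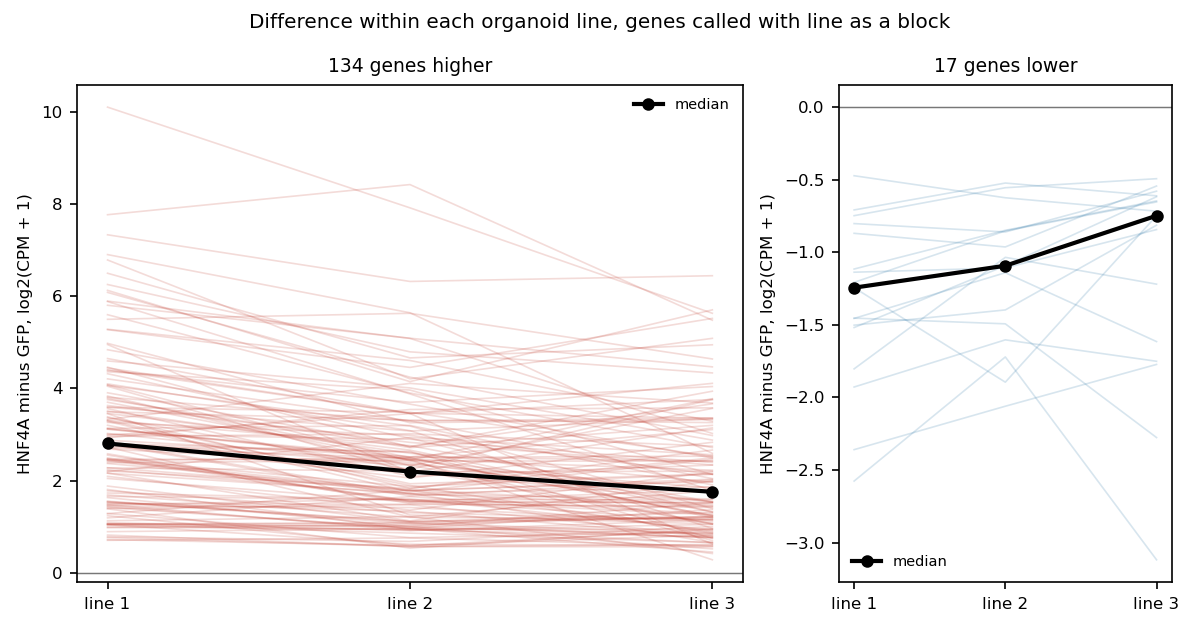
HNF4A minus GFP within lines 1, 2 and 3 on the log2(CPM + 1) scale, one thin line per gene, for the 134 genes higher (left) and the 17 genes lower (right) with the line block, with the median as a thick black line. The median of the higher genes is 2.81, 2.20 and 1.76 in lines 1, 2 and 3, and no gene crosses 0.

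The CDX2 lines allowed a direct test of which of these genes were at another level when CDX2 was the transduced factor. Without the block 1 gene was called higher in the HNF4A lines, Cfb (0.00786% of genes), and 2 lower, B4galnt2 and Fam3c (0.0157%). With the block 45 genes were higher (0.354%) and 47 lower (0.369%). Of the 134 genes, 18 were among those higher and 7 among those lower. The HNF4A libraries of this test are those that chose the 134 genes, so the counts are given as a description.
The 18 were Cps1, Serpinf2, Pipox, Cyp2d10, Apob, Apoc2, Aadac, Tfr2, Agmat, Cyp2c29, Hsd17b13, Tmem82, Krt20, Ckb, Ces2e, Tpmt, Cfb and AI507597. AI507597 lies within the span of Tmem82 and may share reads with it. Agmat, agmatinase, was at 9.18, 3.51 and 0.82 CPM in the HNF4A lines and at 0.10, 0 and 0 CPM in the CDX2 lines (blocked 6.50, adjusted p = 0.032), and Hsd17b13, a lipid droplet enzyme, was at 7.44, 11.9 and 31.4 CPM against 1.41, 2.65 and 2.21 CPM (blocked 2.76, adjusted p = 0.044). Tfr2 had a blocked difference of 5.92 (adjusted p = 0.042) and Apoc2 of 5.80 (adjusted p = 0.044).
The 7 that were lower than in the CDX2 lines were B4galnt2, Isx, Cdx2, Ugt1a7c, Abi3, Phospho1 and Ceacam1. Abi3 and Phospho1 overlap on the genome and may share reads. Ceacam1, an adhesion protein, was at 53.8, 58.8 and 33.2 CPM in the GFP lines, 308, 177 and 74.0 CPM in the HNF4A lines and 888, 511 and 269 CPM in the CDX2 lines (blocked HNF4A minus CDX2 -1.63, adjusted p = 0.044). Each of the 7 was above the GFP lines in the HNF4A lines and higher still in the CDX2 lines. Fam3c, a secreted FAM3 family protein, was at 13, 11.1 and 13 CPM in the GFP lines and at 14.3, 11.9 and 12.4 CPM in the HNF4A lines, a difference within the spread, and at 58.6, 46.0 and 32.2 CPM in the CDX2 lines (-1.83, adjusted p = 0.041). Of the 27 brush border genes 1 was called between HNF4A and CDX2 lines with the block, Baiap2l2, higher in the HNF4A lines (adjusted p = 0.044), against 0.354% of all genes. The largest negative values were those of Ush1c, with a blocked HNF4A minus CDX2 of -3.35 (adjusted p = 0.087), and Cdh17, with -2.17 (0.12). The blocked difference was 0.47 for Anks4b (adjusted p = 0.78), -0.73 for Myo7b (0.17) and 0.02 for Calml4 (0.99). Baiap2l2 and Ush1c were chosen after their values were seen.
Against the small intestine organoids, 7 of the 134 genes were higher in the HNF4A lines and 20 lower, where 6.64% and 5.83% of all genes were. The 7 were Cfb, Cyp2d10, Cyp2d9, Pipox, Reg3b, Serpinf2 and Ttr. For Cyp2d10, Pipox and Serpinf2 the small intestine organoids held at most 1.10 CPM. The HNF4A mean exceeded the small intestine mean for 34 of the 134 genes. Only 2 small intestine libraries enter these comparisons.

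**Figure D5:**
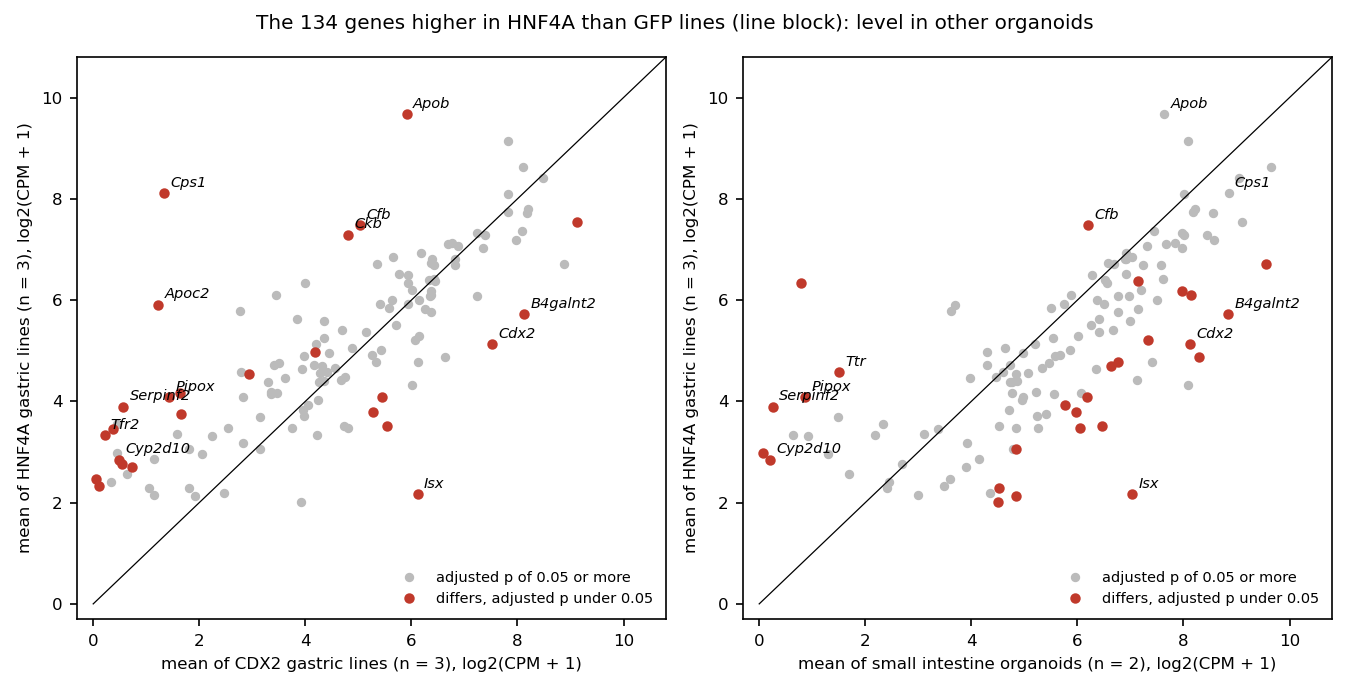
Mean level of the 134 genes in the HNF4A lines (vertical axis) against their mean in the CDX2 lines (left) and in the small intestine organoids (right), as log2 of the mean CPM + 1, with the line of equality. Red points differ between the 2 kinds of organoid at an adjusted p under 0.05, with the line block on the left, and Cps1, Apob, Serpinf2, Pipox, Tfr2 and Cyp2d10 stand above the line on the left, while B4galnt2, Cdx2 and Isx stand below it on both sides.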

How the data were processed

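The authors deposited raw counts, one value for each gene symbol in each library; STAR and the mouse build mm10 are among the names in the submitters' processing notes, which also list hg19, Bowtie2 and Cell Ranger without a role. No source used here says how reads were assigned to genes or with which strand setting, and overlapping genes may share reads. Organoids were released from matrix and lysed in TRIzol, and poly-A libraries were read as pairs, per the labels' protocols. Only this count table was analysed. In R 4.3.3, edgeR 4.0.16 (TMM scaling, filterByExpr set to 10 counts and a total of 15, robust quasi-likelihood test, Benjamini-Hochberg) was fitted to 11 libraries: 3 HNF4A, 3 GFP, 3 CDX2 and 2 small intestine, which share one estimate of the spread. SE is that of the log2 fold change. DESeq2 1.42.0 and limma 3.58.1 were alternatives, and the scripts were tested on simulated data.

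The line number comes from the titles. Correlations of deviations from the group means were 0.692, 0.662 and 0.785 for same-numbered HNF4A and GFP libraries and -0.623 to 0.116 for the others, so the numbers were taken to pair the libraries. A fold against a group with 0 reads is a bound against 3 counts over the group, and with 1 to 3 reads a ratio of counts with a 95% interval. Genes were named by a rule: Hnf4a, Hnf4g, Cdx1, Cdx2 and regulators not reported here; up to 15 genes per direction with the smallest p, filled with genes called with the block; and from each of 35 lists up to 6 called members and members from the 4 of highest CPM. Members and lists were chosen with earlier results of these data known. Positions and windows are from RefSeq, GRCm38.p6.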

Additional observations from a re-analysis of the deposited data

How the results depend on the processing

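The count of genes called between HNF4A and GFP lines was 18 (all higher) and stayed within 1.5 times under other scalings and count filters (15 to 23) and with the 6 libraries alone (13, of which 8 are among the 18, so that 10 were lost). It moved to 8 with the 9 gastric libraries, to 5 with limma-voom, and to 221 with DESeq2 (197 higher, 24 lower). With the replicate block it was 151 (134 higher, 17 lower), with the block in the 6 libraries alone 960 (574 higher, 386 lower), and with the block in DESeq2, added after seeing the data, 517 (394 higher, 123 lower). Leaving out 1 library gave 4 to 30. The block without line 1, 2 or 3, also added later, gave 21, 17 and 33 calls, of which 21, 16 and 32 were higher and 0, 1 and 1 lower. Of the 151 blocked calls 141 were also made by the blocked fit of 6 libraries, all 151 by the blocked DESeq2 fit, 48 in at least 1 of the line omissions and 5 in all 3.

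Hnf4a went from 1.63 (adjusted p = 0.166) to 1.62 with the replicate block (0.00751), 1.62 with the block in 6 libraries (7.49e-05), 1.62 with DESeq2 (0.00116), 1.61 with DESeq2 and the block (1.65e-13) and 1.59 with the block without line 1 (0.0495), but its adjusted p was 0.0632 with the block without line 2 and 0.103 without line 3. Calls between HNF4A and CDX2 lines went from 3 to 92 with the block, 1 with the 9 gastric libraries, 139 with DESeq2, 445 with DESeq2 and the block, 0 to 2 without 1 library, and 9, 1 and 7 with the block without line 1, 2 or 3. The cause of these shifts was not tested. Fam3c, near 0 in the HNF4A and GFP comparison, changed sign to -0.025 without HNF4A replicate 1 and -0.016 without GFP replicate 2, in a range up to 0.10 over the omissions of 1 library. No other gene with a reported difference between HNF4A and GFP lines reversed in any of the 20 alternatives. Differences of single genes from the CDX2 lines and the small intestine organoids were not followed over these alternatives. For Calml4 the HNF4A minus CDX2 value was 0.02 with the block and -0.0037 without it. The replicate block removed none of the 18 calls. Depth limits genes under about 3 counts a library, and 3 lines a group limit most other values.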

Other observations

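Several genes outside the lists, chosen after their values were seen, were also higher with the line block. Mlxipl, the carbohydrate-sensing factor ChREBP, was at 3.31, 5.63 and 2.08 CPM in the GFP lines and at 41.6, 24.3 and 12.7 CPM in the HNF4A lines (blocked 2.73 ± 0.34, log2, SE, edgeR blocked adjusted p = 0.0096). Pklr, at 32.2, 37.3 and 39.3 CPM and then 136, 110 and 115 CPM, is known as a target of ChREBP. In both genes the groups did not overlap, and the adjusted p-values against the small intestine organoids were 0.40 for Mlxipl and 0.98 for Pklr. A1cf, the partner protein of the Apob mRNA editing enzyme, had 0 reads in the GFP lines and was at 8.60, 6.91 and 3.40 CPM in the HNF4A lines, at least 58.0-fold higher (blocked 0.048).

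The series also holds 3 libraries of HNF4A-overexpressing antrum organoids of wild-type genotype from another experiment, which have no GFP control and were scaled separately, so that no comparison is made. In them Cps1 was at 192, 468 and 467 CPM, Apob at 295, 579 and 415 CPM and Cfb at 194, 277 and 163 CPM. Serpinf2 was at 15.4, 34.8 and 18.5 CPM and Pipox at 21.2, 49.3 and 23.3 CPM. Myo7b was at 26.4, 53.7 and 173 CPM and Cdx2 at 16.7, 26.8 and 58.5 CPM. Bpifb1 was at 4.05, 3.85 and 3.05 CPM.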
